A study of Mus musculus with 4 samples.

Results

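The genes described here are 10 genes of the major histocompatibility complex (MHC) and of antigen presentation in mouse testis. They are the class I chain genes H2-K1, H2-D1 and H2-T23, their partners B2m and Tap1, and the class II pathway genes Cd74, H2-Aa, H2-Ab1, H2-Eb1 and H2-DMa. Members were all probe sets of the Affymetrix 430A array whose annotation names one of these symbols, alone or among several. This gave 32 of 22626 probe sets, for 10 of 13319 named genes. The array measures labelled RNA by hybridisation to short probes, and a probe set, with 1 signal, is a group of probes for 1 transcript. RefSeq places 8 of the genes on chromosome 17, where the MHC lies, B2m on chromosome 2 and Cd74 on chromosome 18.

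The samples were isolated seminiferous tubules and whole testis, each from XX/Sry and from W/Wv adults, so that the 4 groups had 1 array each. XX/Sry males are XX animals whose gonad was turned into a testis by the sex-determining gene Sry, carried as a transgene. W/Wv males carry mutant alleles of the receptor gene Kit and were a purchased cross of WB and B6. Testes of either kind are known to be poor in germ cells. The sources used here do not give the XX/Sry strain, the promoter of the transgene, the number of animals behind an array, or whether the same males gave tubules and whole testis. MHC genes are among the most variable genes between mouse strains, and a strain difference between the males cannot be told apart from the difference in genotype. Differences between strains may also affect the probes, so a ratio of signals need not be a ratio of RNA. This was not tested.

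Class I molecules are made by most nucleated cells. Their heavy chain, such as that of H2-K1 or H2-D1, pairs with beta-2 microglobulin, the product of B2m, and shows peptides from inside the cell to CD8 T cells. Tap1 encodes one side of the transporter that carries those peptides into the endoplasmic reticulum. Class II molecules are made mainly by macrophages, dendritic cells and B cells, and show peptides from engulfed material to CD4 T cells. In the testis the macrophages lie mostly between the tubules, while the Sertoli cells inside them form a barrier that keeps immune cells from germ cells.

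Upstream sequences are shown first because class I and class II genes are known to share a promoter module. The module has an X box and a Y box at a fixed distance, and class I promoters add a site for NF-kappa B and an interferon-response element. RefSeq sequence of build GRCm38.p6, which is that of C57BL/6J, was held for 8 of the 10 genes, and Cd74 and H2-Ab1 were the other two. The 200 bases before the start annotated with that sequence follow for 5 genes, with motif matches in capitals. For H2-K1 this start lies inside the RefSeq gene span, which on the minus strand begins at 34000619. Its window is thus within the gene, as is that of H2-DMa, which is not printed. The motifs, searched on both strands, were CCAAT (the Y box core), TGACG (a cyclic AMP response half-site, as in the X2 box), GCAAC (an X box core), GGGANTCCC (a kappa B site) and GAANNGAAA (an interferon-response core). Matches to TGACG on the 2 strands overlap in H2-Aa.
H2-K1, chr17:34000348-34000547, minus strand: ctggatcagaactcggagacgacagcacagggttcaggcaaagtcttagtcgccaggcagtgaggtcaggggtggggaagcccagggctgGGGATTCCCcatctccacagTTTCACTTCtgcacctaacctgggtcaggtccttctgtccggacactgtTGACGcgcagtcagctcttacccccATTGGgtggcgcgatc
H2-D1, chr17:35262894-35263093, plus strand: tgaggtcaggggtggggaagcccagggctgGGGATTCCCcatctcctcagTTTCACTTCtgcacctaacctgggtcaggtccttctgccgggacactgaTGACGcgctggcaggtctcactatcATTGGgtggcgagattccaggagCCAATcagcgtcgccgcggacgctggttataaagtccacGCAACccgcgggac
B2m, chr2:122147487-122147686, plus strand: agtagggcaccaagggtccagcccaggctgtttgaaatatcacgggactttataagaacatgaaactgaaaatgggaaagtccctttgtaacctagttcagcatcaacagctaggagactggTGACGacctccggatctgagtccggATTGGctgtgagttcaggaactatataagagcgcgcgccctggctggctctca
H2-Aa, chr17:34287824-34288023, minus strand: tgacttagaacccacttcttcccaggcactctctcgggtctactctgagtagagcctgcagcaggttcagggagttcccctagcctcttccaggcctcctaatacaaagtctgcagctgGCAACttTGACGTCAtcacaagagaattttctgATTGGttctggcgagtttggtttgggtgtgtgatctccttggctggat
H2-Eb1, chr17:34305667-34305866, plus strand: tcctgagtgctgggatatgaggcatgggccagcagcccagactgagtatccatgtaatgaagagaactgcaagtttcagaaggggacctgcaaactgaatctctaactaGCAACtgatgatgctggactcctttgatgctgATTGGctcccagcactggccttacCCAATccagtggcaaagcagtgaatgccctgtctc

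In H2-K1, H2-D1 and B2m the letters TGACG stood 25 bases before ATTGG, the reverse complement of CCAAT, counted between first letters. In H2-Aa the distance was 26 bases. Read in this order along the strand of the gene only, this pair at 25 to 26 bases was found in 21 of 27025 promoters of the same length, or 0.0777%. The distance searched was the one seen in these genes, which are among the 21. In H2-Aa and H2-Eb1, GCAAC stood 33 and 32 bases before ATTGG. Counted in the same way, this arrangement was held by 17 promoters, or 0.0629%. The kappa B letters GGGANTCCC were found in H2-K1 and H2-D1 alone among the 8 members, 69 bases before TGACG in each. They were in 128 promoters in all, or 0.474%. Singly, the short motifs are common: CCAAT was in 30.0% of promoters and in 6 of the 8 members, TGACG in 15.8% and in 5, and GCAAC in 25.4% and in 5. The letters GAANNGAAA, searched as the interferon-response core, were in 5.0% of promoters and in 2 members. Other spellings were not searched, such as gaaactgaaa in B2m. A member without a match is therefore not shown to lack such an element. These matches describe letters in a window and were chosen after the sequences had been read. They say nothing about binding in these testes.

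A signal counted as above background when it exceeded the highest of 27 bacterial control probe sets on its array, a bound of 61.0 in XX/Sry tubules, 46.1 in W/Wv tubules, 63.9 in XX/Sry whole testis and 76.3 in W/Wv whole testis. Of the 32 member probe sets, 21 were above the bound on all 4 arrays, 5 on 1 to 3 arrays and 6 on none. Each of the 10 genes had at least 1 probe set above it on every array. The dim probe sets were 1 of H2-K1, 6 of H2-D1, 1 of H2-T23 and 3 of Tap1, and no direction is drawn from them. H2-K1 and H2-D1 are close copies. Of their 16 probe sets 12 have names ending in _x_at, Affymetrix's mark for probes that can match other transcripts, and 1 is annotated to both genes. Signals of the class I chains can therefore hold RNA of more than 1 gene. For each gene the probe set with the highest mean log2 signal stands for it unless another is named.

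The array labels were checked on sex-linked genes. Xist, the X inactivation RNA, had signals of 1002 and 3099 in XX/Sry tubules and whole testis, against 76.7 and 131 in W/Wv. The Y-linked Eif2s3y had 28.2 and 9.5 in XX/Sry, against 580.3 and 795 in W/Wv. Both preparations matched their genotype labels. Tissue markers were also present: all 9 Leydig and 15 of 17 Sertoli cell markers were above the bound on all 4 arrays. Median signals over all probe sets lay between 157 and 183. All 15 germ cell markers were above the bound in W/Wv whole testis, whereas 7 were in XX/Sry tubules, 8 in W/Wv tubules, and, of whole testis, 6 in XX/Sry. With 1 array per group there was no replicate, and precision is limited by that number.

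The first comparison set XX/Sry against W/Wv within tubules and within whole testis. By the study's own rule, at least 2-fold the same way in both preparations, 0 of the 10 genes were higher and 0 lower in XX/Sry, beside 2.05% and 3.44% of all genes. Class I signals were mostly higher in XX/Sry, and the gene past 2-fold depended on the preparation: H2-K1 and Tap1 in tubules, B2m and H2-T23 in whole testis. Of the class II genes, H2-Eb1 was 2.96-fold lower in XX/Sry tubules and the other 4 were within 2-fold in both preparations. Beside these, 11.2% of all genes were 2-fold higher in tubules and 8.21% in whole testis, and 10.7% and 13.5% were 2-fold lower. Those shares include dim probe sets. Of all probe sets above the bound on every array, 4.84% were 2-fold higher in tubules and 3.7% in whole testis, and 3.64% and 3.88% were lower. Of the 21 such member probe sets, 5 were higher in tubules and 3 in whole testis, and 1 and 0 lower. In tubules, 4 of those 5 were of H2-K1 and H2-D1, whose probe sets can hold the same RNA. Members were chosen with results known, so nothing is read from these counts about the members.

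An additive fit of genotype and preparation was tested with limma (moderated test, Benjamini-Hochberg over 22626 probe sets). It has 1 residual degree of freedom and takes disagreement between preparations as error, which includes no variation among animals if the same males gave both preparations. The SE printed with its estimates is limma's moderated SE. Most of the variance in it is borrowed from all probe sets, through a median prior of 9.98 degrees of freedom. It does not measure how well the arrays agreed for a single gene. For genotype, 0 of 32 member probe sets passed an adjusted p of 0.05 in limma, beside 0.11% of all probe sets called higher and 0.0398% called lower. The lowest adjusted p in limma was 0.182. At an unadjusted p under 0.05 limma had 7 member probe sets higher and 1 lower, beside 3.93% and 4.8% of all probe sets; those 7 belong to H2-K1, H2-D1 and B2m, and the 1 to H2-Eb1. A permutation of 2 arrays against 2 cannot give a two-sided exact p below 0.333.

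**Figure D1:**
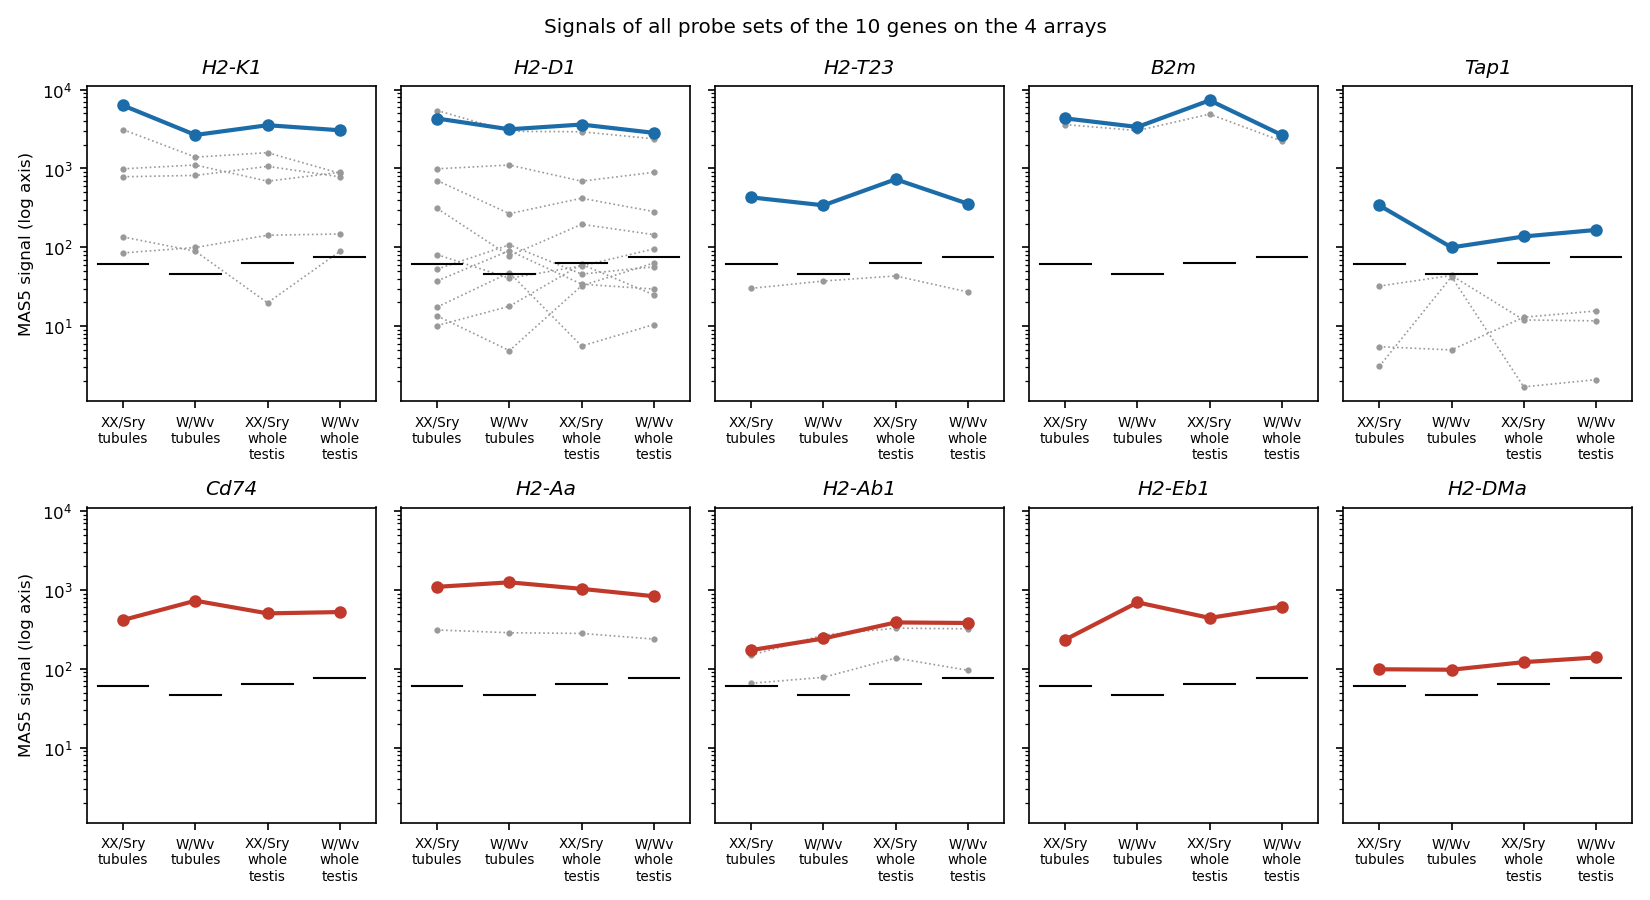
MAS5 signal on a log axis for every probe set of the 10 genes on the 4 arrays. The coloured line is the probe set that stands for the gene (blue for class I, red for class II), grey dotted lines are its other probe sets, and black bars mark the background bound of each array. B2m is highest in XX/Sry whole testis, H2-K1 and Tap1 in XX/Sry tubules, and H2-Eb1 is lowest in XX/Sry tubules.

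H2-K1 encodes the classical class I heavy chain K. Its signals were 6295 in XX/Sry tubules and 2661 in W/Wv tubules, with 3539 in XX/Sry whole testis and 3054 in W/Wv whole testis. The XX/Sry tubule array stood above the other 3, which lay close together. The ratio of XX/Sry over W/Wv was thus 2.37-fold in tubules and 1.16-fold in whole testis, with a log2 estimate of 0.73 ± 0.29 (SE, 4 arrays) and an adjusted p of 0.505 in limma's additive fit.

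Other H2-K1 probe sets divided. The probe set 1451931_x_at had 3108 in XX/Sry and 1393 in W/Wv tubules, with 1588 in XX/Sry and 869 in W/Wv whole testis. It was higher in XX/Sry on both preparations, 2.23-fold and 1.83-fold, and had the lowest adjusted p of the members in limma, 0.182. Another, 1427746_x_at, had 786 and 817 in XX/Sry and W/Wv tubules, and 1064 and 785 in XX/Sry and W/Wv whole testis. It did not show the tubule difference (1.04-fold lower), nor did 1450534_x_at (1.17-fold lower). Probe sets annotated to 1 gene thus gave different answers. As a mean over its probe sets, the H2-K1 log2 ratio in tubules was 0.43, below 2-fold.

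H2-D1 encodes the heavy chain D. Its signals were 4303 in XX/Sry tubules and 3141 in W/Wv tubules, with 3609.6 in XX/Sry whole testis and 2832 in W/Wv whole testis. XX/Sry was above W/Wv in each preparation, by 1.37-fold and 1.27-fold. A second bright probe set, 1425545_x_at, had 5433 in XX/Sry and 2960 in W/Wv tubules. In whole testis it had 2923 in XX/Sry and 2378 in W/Wv. Its XX/Sry signals were 1.8-fold and 1.2-fold higher. Among its dimmer probe sets, 1426324_at had 311 in XX/Sry and 78.0 in W/Wv tubules, a 3.99-fold difference, against 196 and 145 in XX/Sry and W/Wv whole testis. This probe set is not one of those marked _x_at. The probe set 1451683_x_at had ratios over W/Wv of 2.63-fold in tubules and 1.48-fold in whole testis, while the probe set shared by H2-K1 and H2-D1 was lower by 1.12-fold and 1.29-fold. Of the 9 probe sets of H2-K1 and H2-D1 above the bound on all arrays, 6 were higher in XX/Sry tubules and 7 in XX/Sry whole testis, with log2 ratios between -0.23 and 2.00 in tubules and between -0.37 and 0.87 in whole testis. Among all probe sets above the bound on all arrays, 49.1% were higher and 50.8% lower in XX/Sry tubules, and 45.9% higher and 54.0% lower in XX/Sry whole testis.

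H2-T23 encodes Qa-1, a less variable class I chain that shows signal peptides of other class I chains to receptors of natural killer cells. Its probe set is shared with the pseudogene H2-T-ps. Signals were 430.1 in XX/Sry and 341 in W/Wv tubules, with 730.0 in XX/Sry and 358 in W/Wv whole testis. XX/Sry whole testis was the high array, 2.04-fold above W/Wv, and after 50 was added to every signal the log2 ratio was 0.94, below 2-fold. In tubules the ratio was 1.26-fold.

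B2m encodes the light chain that all of these class I heavy chains need at the cell surface. Its 2 probe sets ran alike. The brighter had 4319 in XX/Sry and 3361 in W/Wv tubules, with 7319 in XX/Sry and 2656 in W/Wv whole testis. The other had 3604 in XX/Sry and 3026 in W/Wv tubules, with 4893 in XX/Sry and 2225 in W/Wv whole testis. XX/Sry whole testis was the highest array in each, by 2.76-fold and 2.20-fold over W/Wv, against 1.29-fold and 1.19-fold in tubules. The estimate was 0.91 ± 0.30 on the log2 scale (SE, 4 arrays), with an adjusted p of 0.378 in limma. B2m and H2-K1 therefore had their larger genotype ratio in different preparations, a contrast for which no test was possible with 1 array per group.

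Tap1 encodes a subunit of the peptide transporter. Its signals were 340.4 in XX/Sry and 99.8 in W/Wv tubules, with 137 in XX/Sry and 166 in W/Wv whole testis. XX/Sry tubules stood above the other 3 arrays, at 3.41-fold over W/Wv, while in whole testis XX/Sry was 1.21-fold lower. The other 3 Tap1 probe sets were below the bound on all arrays, so the value rests on 1 probe set (adjusted p 0.779 in limma's additive fit). With those 3 averaged in, the log2 ratio in tubules turned to -0.58.

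Cd74 encodes the invariant chain, which fills the class II groove until peptide is loaded. Its signals were 417 in XX/Sry and 731 in W/Wv tubules, with 505 in XX/Sry and 525 in W/Wv whole testis. The whole testis arrays differed by 1.04-fold, with a direction that turned when arrays were centred on their medians, and in tubules XX/Sry was 1.75-fold lower. The array that stood out was W/Wv tubules, on the high side.

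H2-Aa and H2-Ab1 encode the alpha and beta chains of one class II molecule, H2-A. H2-Aa had 1097 in XX/Sry and 1251.0 in W/Wv tubules, with 1034 in XX/Sry and 833 in W/Wv whole testis. Its second probe set had 311 and 287 in XX/Sry and W/Wv tubules, and 281 and 239 in XX/Sry and W/Wv whole testis. No array differed from another by 2-fold in either probe set, and in tubules their directions differed. H2-Ab1 had 173 in XX/Sry and 243 in W/Wv tubules, with 388 in XX/Sry and 382 in W/Wv whole testis. Its 3 probe sets were 1.40-fold, 1.80-fold and 1.19-fold lower in XX/Sry tubules, and in whole testis 1.02-fold, 1.02-fold and 1.43-fold higher.

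H2-Eb1 encodes the beta chain of the other class II molecule, H2-E. Its signals were 235 in XX/Sry and 696 in W/Wv tubules, with 442.5 in XX/Sry and 616 in W/Wv whole testis. XX/Sry was lower in each preparation, 2.96-fold in tubules and 1.39-fold in whole testis. It had the lowest adjusted p among the class II genes, 0.378 in limma, with an estimate of -1.02 ± 0.34 on the log2 scale (SE, 4 arrays). H2-DMa, the alpha chain of the chaperone that loads class II with peptide, had 98.8 and 97.5 in XX/Sry and W/Wv tubules, and 122 and 139 in XX/Sry and W/Wv whole testis, all within 1.43-fold of each other. Of the 8 class II probe sets, all above the bound on every array, 2 had a ratio above 0 in tubules, of H2-Aa and H2-DMa, and 5 in whole testis. Their median log2 ratios were -0.37 and 0.02, to be read beside the shares of all such probe sets given above.

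**Figure D2:**
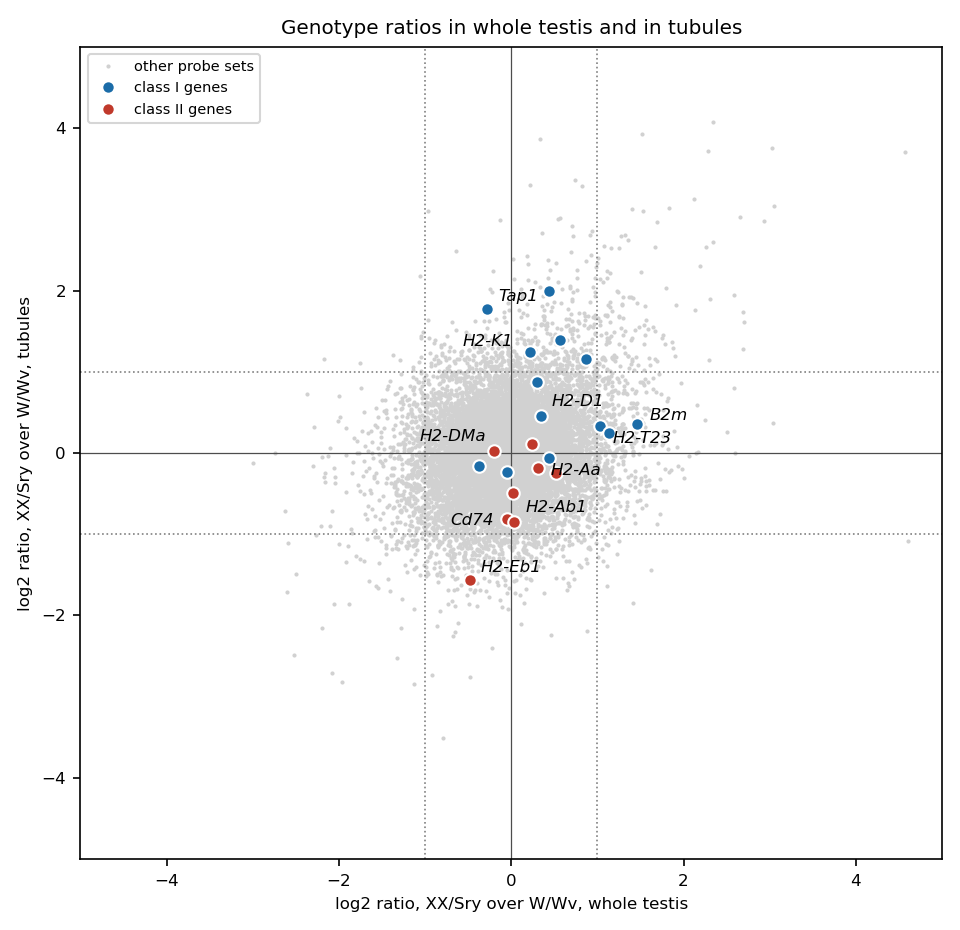
Log2 ratio of XX/Sry over W/Wv in whole testis (horizontal) and in tubules (vertical) for probe sets above the bound on all 4 arrays. Blue points are probe sets of class I genes, red points those of class II genes, labels name the probe set that stands for each gene, and dotted lines mark 2-fold. No member lies beyond 2-fold in both preparations; Tap1 and H2-K1 pass in tubules, B2m and H2-T23 in whole testis, and H2-Eb1 lies lowest in tubules.

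As groups, the 5 class I genes had median log2 ratios of 0.45 in tubules and 0.35 in whole testis, and the 5 class II genes of -0.49 and -0.05, beside -0.01 and -0.10 over all genes. In tubules 5 of 5 class I and 1 of 5 class II ratios were above 0 (H2-DMa, which turned when arrays were centred on their medians), beside 49.5% of all genes. In whole testis 4 of 5 and 2 of 5 were, beside 43.5% of all genes, with Cd74 joining them on centring. With the mean over all probe sets of each gene the class I medians were 0.22 and -0.01, so that the direction in whole testis turned, and with single-symbol probe sets 0.85 and 0.28. These medians describe the arrays and were not tested.

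Cell markers were set beside these values. The summed signal of 20 macrophage markers was 4803 in XX/Sry tubules and 6401 in W/Wv tubules, with 20348 in XX/Sry whole testis and 16465 in W/Wv whole testis. Of these markers 3 had a ratio above 0 in tubules and 12 in whole testis, beside 49.5% and 43.5% of all genes. Their medians were -0.59 and 0.33. One of the 2 brightest, Csf1r, the receptor for macrophage growth factor, had 849 and 1274 in XX/Sry and W/Wv tubules, and 3876 and 2703 in XX/Sry and W/Wv whole testis. Mrc1, the mannose receptor, had 1451 and 1288 in tubules and 2326 and 1831 in whole testis of XX/Sry and W/Wv. The summed signal of the 5 class II genes was 2021 in XX/Sry and 3019 in W/Wv tubules, as against 2492 in XX/Sry and 2496 in W/Wv whole testis. It was lower in XX/Sry tubules, as the macrophage sum was, but not higher in XX/Sry whole testis, where the macrophage sum was higher. The part of macrophages in the class II ratios was not tested. In bulk tissue, fewer cells of a type and less RNA per cell cannot be told apart.

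Markers of other cell types were measured too. Of 14 dendritic and B cell markers 1 was above the bound on all arrays, and their sum was 959 in XX/Sry and 913 in W/Wv tubules, with 1124 in XX/Sry and 1449 in W/Wv whole testis. Cd83, an activation marker of dendritic cells, had 141 and 390.0 in XX/Sry and W/Wv tubules and 132 and 306 in XX/Sry and W/Wv whole testis. Flt3 had 117 and 108 in tubules and 110.4 and 70.0 in whole testis of XX/Sry and W/Wv. Of 15 T and natural killer cell markers 1 was above the bound on all arrays and 4 on none. By array, 3 were above it in XX/Sry tubules, 7 in W/Wv tubules, 6 in XX/Sry whole testis and 7 in W/Wv whole testis. Their sum was 511 in XX/Sry and 603 in W/Wv tubules, with 861 in XX/Sry and 876 in W/Wv whole testis. The brightest of this list, Prf1 and Thy1, were at most 132 and 94.2. Leydig cell markers summed to 35464 in XX/Sry and 19316 in W/Wv tubules and to 87866 in XX/Sry and 71450 in W/Wv whole testis, with genotype medians of 0.92 and 0.52 on the log2 scale. Cyp17a1, a steroidogenic enzyme, had 12622 in XX/Sry and 4989 in W/Wv tubules, with 25437 in XX/Sry and 17798 in W/Wv whole testis, and the Leydig hormone Insl3 10417 and 7764 in tubules and 21509 and 26560.0 in whole testis. Endothelial markers had medians of 0.09 in tubules and 0.44 in whole testis, led in signal by Esam and Robo4, and the 17 Sertoli cell markers, led by Clu and Aard, of -0.09 and 0.00. Germ cell markers, led by Dazl and Uchl1, had medians of 0.05 in tubules and -3.35 in whole testis. Of these 15 markers 6 were above the bound in XX/Sry whole testis, so -3.35 is not a measured fold. The 5 above it on all arrays had medians of 0.05 and -0.71. The germ cell markers summed to 2320.3 in XX/Sry and 2227 in W/Wv tubules and to 1905 in XX/Sry and 7882 in W/Wv whole testis. By the 2-fold rule, with the brighter array of each pair above its bound, 2 Leydig and 1 endothelial marker were higher in XX/Sry, and 3 germ cell, 1 dendritic or B cell and 1 T or natural killer cell marker lower. Without that condition on the bound, 2.05% of all genes were higher and 3.44% lower. The part of these cells in the class I ratios was not tested.

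The other comparison set tubules, treated with collagenase and a strainer to remove the cells between them, against whole testis. All 9 Leydig cell markers were still above the bound on both tubule arrays. The tubule arrays are thus not shown to be free of such cells. None of the 10 genes was 2-fold different the same way in both genotypes, beside 1.26% of all genes higher and 5.89% lower in tubules. In limma's additive fit 0 of 32 member probe sets passed an adjusted p of 0.05 for preparation, beside 0.239% of all probe sets called higher and 0.977% lower; at an unadjusted p under 0.05 limma had 2 higher, of H2-K1 and H2-D1, and 2 lower, of H2-Ab1 and a dim H2-D1 probe set, beside 5.69% and 8.24%. Within XX/Sry, 1 gene was 2-fold higher in tubules (Tap1, beside 9.27% of all genes) and 1 lower (H2-Ab1, beside 14.2%). Within W/Wv the counts were 0 and 0, beside 7.53% and 18.9%. In the same comparison 14 of 20 macrophage and 7 of 9 Leydig cell markers were 2-fold lower in tubules of both genotypes, and 9 and 5 of them passed limma's additive fit at an adjusted p of 0.05. Macrophage medians were -2.26 in XX/Sry and -1.49 in W/Wv, against -0.30 and 0.18 for the class II genes and 0.25 and -0.07 for the class I genes.

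Single genes differed in how they met the tissue preparation. H2-Ab1 was the class II gene lowest in tubules, 2.24-fold below whole testis in XX/Sry and 1.57-fold in W/Wv, and after 50 was added to every signal the XX/Sry log2 ratio was -0.97, within 2-fold. Its other 2 probe sets were 2.09-fold and 2.20-fold lower in XX/Sry tubules, and 1.23-fold and 1.20-fold lower in W/Wv tubules. Its log2 estimate was -0.91 ± 0.36 (SE, 4 arrays), with an adjusted p of 0.291 in limma. H2-Eb1 was 1.88-fold lower in XX/Sry tubules but 1.13-fold higher in W/Wv tubules, and Cd74 1.21-fold lower and 1.39-fold higher. H2-Aa was higher in tubules of each genotype, 1.06-fold in XX/Sry and 1.50-fold in W/Wv. The alpha and beta chains of H2-A were thus measured with opposite directions. The H2-Aa probe set is one of those marked _x_at, and its second probe set was 1.11-fold and 1.20-fold higher.

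Among class I genes Tap1 was 2.48-fold higher in tubules than in whole testis of XX/Sry, and in W/Wv it was 1.67-fold lower in tubules. With its dim probe sets averaged in, the XX/Sry log2 ratio was 0.59, below 2-fold. H2-K1 was 1.78-fold higher in XX/Sry tubules and 1.15-fold lower in W/Wv tubules, the second of which turned when arrays were centred on their medians. H2-D1 was higher in tubules of each genotype, 1.19-fold and 1.11-fold, and the H2-K1 probe set 1451931_x_at 1.96-fold and 1.60-fold (adjusted p 0.150 in limma). B2m was 1.69-fold lower in XX/Sry tubules and 1.27-fold higher in W/Wv tubules, and H2-T23 1.70-fold and 1.05-fold lower. The W/Wv ratio of H2-T23 turned on centring. Median centring moved all log2 ratios of tubules over whole testis up by 0.22 on the log2 scale in W/Wv and 0.11 in XX/Sry.

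**Figure D3:**
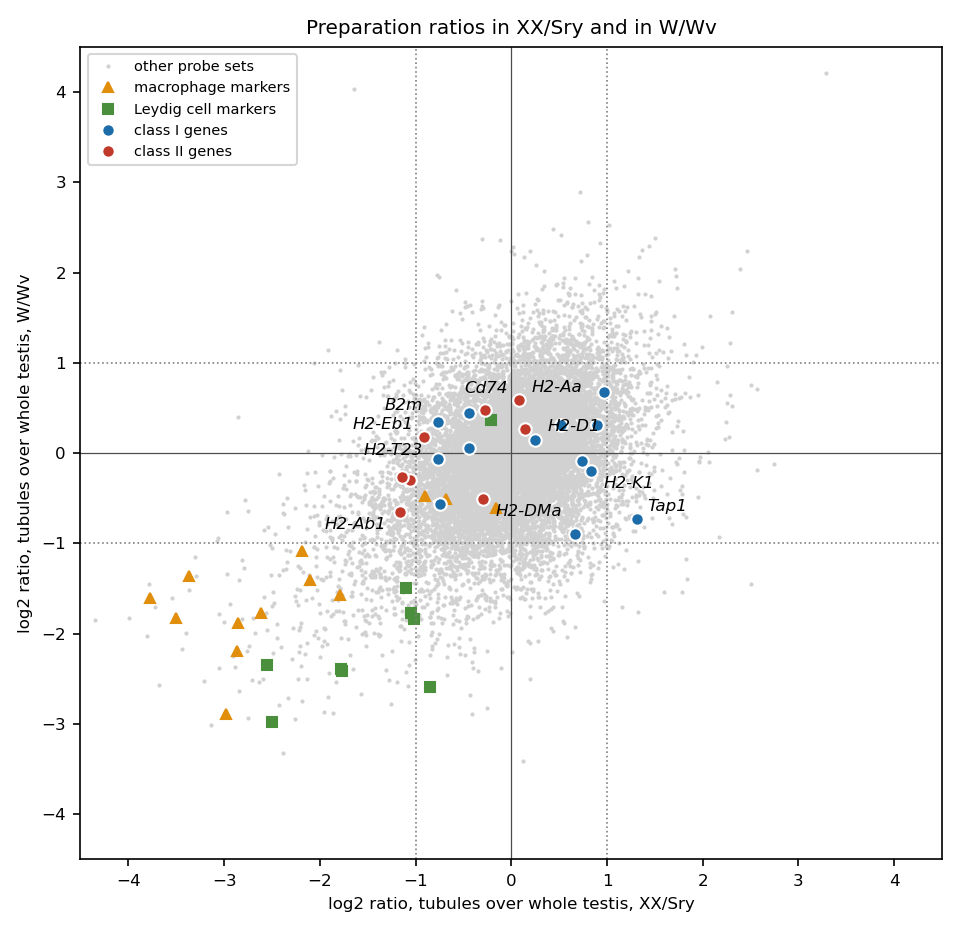
Log2 ratio of tubules over whole testis in XX/Sry (horizontal) and in W/Wv (vertical) for probe sets above the bound on all 4 arrays. Orange triangles are macrophage markers and green squares Leydig cell markers, most of them in the lower left beyond 2-fold (dotted lines), while the blue class I and red class II probe sets lie nearer the centre.

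Further genes of antigen presentation were taken from lists of the pathway. In counts of these lists and of the markers, a 2-fold difference is given only where the brighter array of each pair was above its bound. No share over all genes was computed with that filter. Without it, 2.05% of all genes were 2-fold higher and 3.44% lower in XX/Sry in both preparations. Of all probe sets above the bound on all arrays, 49.1% had a ratio above 0 in tubules and 45.9% in whole testis. Nothing is read about a list from counts this small. Of 20 probe sets for other class I and class I-like chains, none of them a member, 1 was 2-fold higher and 0 lower in XX/Sry in both preparations. None passed limma's additive fit for genotype, here or in the next 3 lists. Of the 10 above the bound on all arrays, ratios were above 0 for 7 in tubules and 9 in whole testis, with medians of 0.48 and 0.50. The 1 higher was Hfe, a class I-like chain that regulates iron uptake. It had 2787 in XX/Sry and 1043 in W/Wv tubules, with 2109 in XX/Sry and 798 in W/Wv whole testis. Its ratio was thus 2.67-fold in tubules and 2.64-fold in whole testis, almost the same in each. Of 13 probe sets for peptide supply and loading 1 was higher and 0 lower, Tapbpl, a relative of the loading factor tapasin. Its signals were 64.3 and 28.2 in XX/Sry and W/Wv tubules and 104.6 and 46.0 in XX/Sry and W/Wv whole testis, at least 1.05-fold and at least 1.37-fold higher against the bound. Of the 12 above the bound on all arrays, 10 had a ratio above 0 in tubules and 7 in whole testis (medians 0.21 and 0.12).

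Of 12 further class II pathway genes 0 passed in either direction for genotype. The 5 above the bound on all arrays had medians of 0.00 in tubules and 0.45 in whole testis. Ciita, the master activator of class II genes, was above the bound on no array (21.9 and 45.2 in XX/Sry and W/Wv tubules, 62.8 and 74.8 in XX/Sry and W/Wv whole testis), so no ratio is given. H2-Ea, the alpha chain partner of H2-Eb1, whose promoter is known to be deleted in C57BL/6 mice, had 62.6 and 77.3 in XX/Sry and W/Wv tubules, and 125.0 and 100.7 in XX/Sry and W/Wv whole testis, near the bound. Of 16 regulators, including genes of the interferon gamma pathway, 0 were higher and 1 lower, Creb1, a factor that binds the half-site of the X2 box. Creb1 had 121 in XX/Sry and 264 in W/Wv tubules, with 94.7 in XX/Sry and 239 in W/Wv whole testis. Irf1, an interferon-induced activator of class I genes, had 268 and 276 in XX/Sry and W/Wv tubules and 413 and 653 in XX/Sry and W/Wv whole testis, 1.03-fold and 1.58-fold lower. Nlrc5 was not analysed here.

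**Figure D4:**
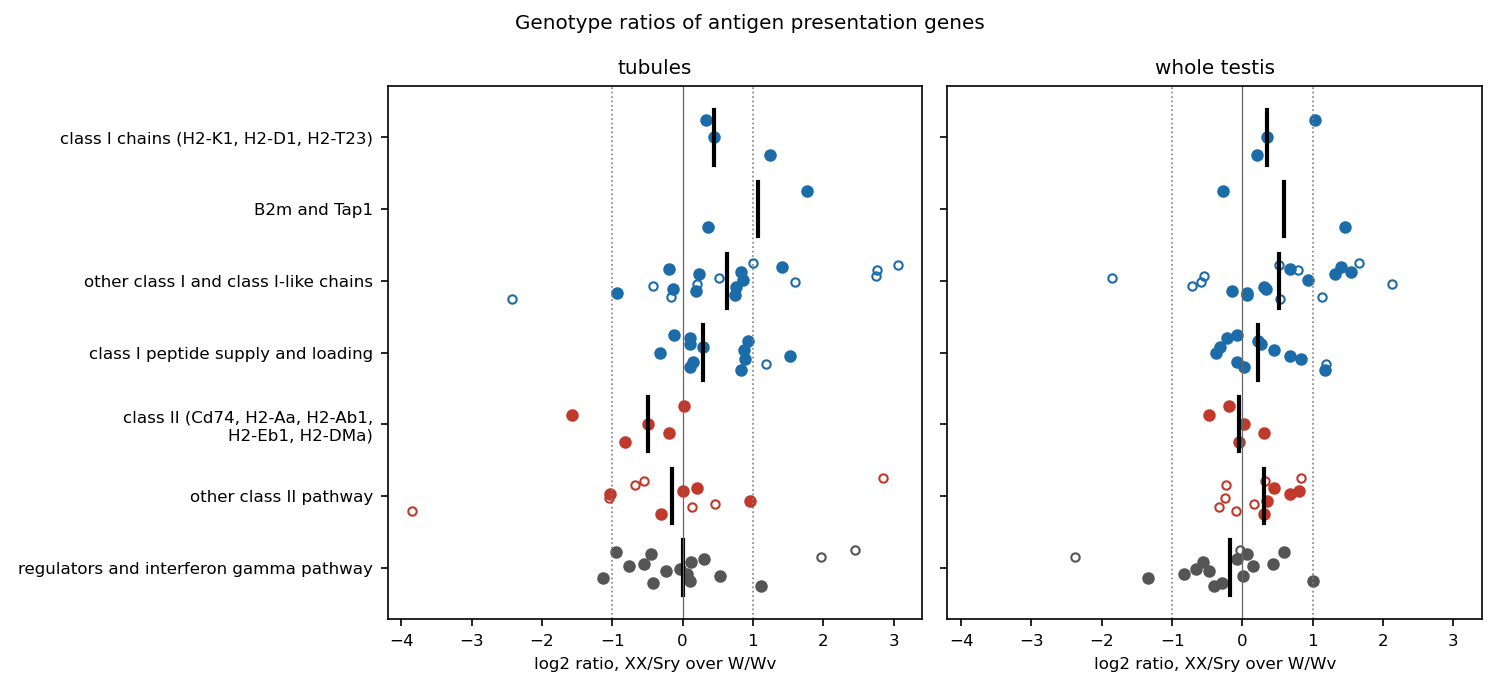
Log2 ratio of XX/Sry over W/Wv in tubules (left) and whole testis (right) for the members and 4 lists of other antigen presentation genes. Filled points are probe sets above the bound on all 4 arrays, open points those below it on at least 1, black bars are medians over filled and open points, and dotted lines mark 2-fold. Medians of the class I lists lie above 0 in both panels, and that of the class II members lies at -0.49 in tubules.

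Between preparations, 1 of the other class I chains, 1 gene of peptide supply, 2 further class II genes and 1 regulator were 2-fold lower in tubules of both genotypes, and 1 class I chain was higher. Without the filter on the brighter array, 5.89% of all genes were lower and 1.26% higher in tubules. Of the remaining markers, 2 dendritic or B cell and 1 T or natural killer cell marker were lower, 2 endothelial markers higher, and none of the germ cell or Sertoli cell markers either. Fcgrt, the neonatal Fc receptor heavy chain, had 246 in XX/Sry tubules and 1110.3 in XX/Sry whole testis, and 280 in W/Wv tubules and 697 in W/Wv whole testis. Psme1, a subunit of the proteasome activator, was 2.26-fold lower in XX/Sry tubules and 3.04-fold in W/Wv tubules, and Irf8, a transcription factor of macrophages and dendritic cells, 6.01-fold and 3.03-fold. These 3 genes also fell in limma's additive fit, with adjusted p-values of 0.0254, 0.0233 and 0.00903. The co-stimulatory gene Cd86 was at least 1.94-fold and 2.05-fold lower, and H2-Oa, which modulates class II loading, at least 1.68-fold and 2.04-fold. H2-Q4, on a probe set shared by 3 genes, counted as higher in tubules, with 62.0 and 69.6 in tubules and 23.2 and 10.6 in whole testis of XX/Sry and W/Wv, where the whole testis signals were below the bound.

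Genes with the most similar pattern were sought over the 4 arrays among 6835 genes of at least median signal, by the distance between log2 profiles centred on their own means. Nearest to the mean of Cd74, H2-Aa, H2-Ab1 and H2-Eb1 were Znrd2, Tmem14c, Chkb, Eef1e1 and Ell, at distances of 0.05 to 0.06. The 4 class II genes themselves lay farther from that mean, between 0.31 for Cd74 and 0.73 for H2-Aa. Nearest to the mean of H2-K1, H2-D1 and B2m were Nmt1, Ackr3, Klhl22, BC004004 and Enpp5, at 0.05 to 0.10, while the 3 class I genes lay between 0.30 and 0.68 from it. The 5 nearest genes were chosen by that distance, so theirs had to be small, and likeness over 4 arrays was not tested.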

How the data were processed

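RNA of whole testis and of isolated seminiferous tubules was measured on Affymetrix 430A arrays, 1 per group. The deposited values are intensity on a linear scale, calculated with MAS5 per the submitters' processing notes. The mean signal without the lowest and highest 2% was 500.2 on each array, so arrays had been scaled alike. From these, log2 ratios were computed without an offset. Of 22690 probe sets 64 controls were set aside. Symbols came from the platform annotation, updated by Entrez identifier to RefSeq.

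Members and lists were chosen with earlier results of these data known. Ratios took XX/Sry over W/Wv and tubules over whole testis, with the 2-fold rule of the design text. Where the dimmer signal was below its bound, the fold is a bound, taken against the higher of both arrays' bounds. The additive fit used limma 3.58.1 in R 4.3.3 with a trend. It was also run on simulated arrays, whose genotype effects were the same in both preparations apart from noise. That run therefore does not show how the fit fares where preparations disagree. Genes outside the members were named if they passed the 2-fold rule with the brighter array of each pair above its bound. Ciita, H2-Ea, Irf1 and Nlrc5 were named in any case, and from each marker list the 2 brightest. Lists were of macrophages, dendritic and B cells, T and natural killer cells, Leydig, Sertoli, endothelial and germ cells, and 4 of the pathway. Alternatives were median centring, quantile normalisation, an offset of 50, signals raised to the bound, the mean of all probe sets, single-symbol probe sets, a filter on low signals and, added after seeing the data, leaving out _x_at probe sets.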

Additional observations from a re-analysis of the deposited data

How the results depend on the processing

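No paired analysis was possible because each group had 1 array and so no replicates to pair; the additive fit holds preparation as a term. The counts of 0 member genes past the 2-fold rule and of 0 member probe sets called in limma's additive fit were 0 under each alternative run. Of the ratios of single genes, all 40 stayed on their side of 2-fold under median centring, quantile normalisation and signals raised to the bound. With 50 added to every signal 2 of 40 fell below 2-fold. With the mean of all probe sets of a gene, Tap1 in tubules turned to -0.58 on the log2 scale (against 1.77 for its bright probe set alone), since its other 3 probe sets were below the bound, 3 other ratios fell below 2-fold, and the class I median in whole testis turned to -0.01. H2-K1 in tubules was 0.43 with that mean and 0.60 without _x_at probe sets, the latter on a probe set shared with H2-Q5. Its whole testis ratio on that probe set was -2.16, with the XX/Sry whole testis signal below the bound. Its ratio of tubules over whole testis in XX/Sry, which holds the same dim signal, was 2.77, against 0.83 before. H2-D1 in tubules was 2.00 without _x_at probe sets, against 0.45 before. With the filter on low signals, which dropped Tap1 and H2-DMa, the class I median for tubules over whole testis in XX/Sry was -0.25, against 0.25 before. H2-T23 gave no value with single-symbol probe sets. Without replicates no spread between animals is known.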
